A study of Mus musculus with 58 samples.

Results

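Nascent RNA, labelled by nuclear run-on, was set against genomic DNA (gDNA) for a library of short sequences placed at the Pou5f1 locus of mouse embryonic stem cells. The comparison used 4 of the 58 samples of the series, chosen by their labels: 2 run-on RNA libraries and the gDNA library that the labels give as the partner of each, here called run-on screen 1 and run-on screen 2. The gDNA of run-on screen 1 also served the fourth total RNA library of the series. The library held 16461 inserts of 175 nt, and 15166 of them (92.1%) had at least 50 reads in both gDNA libraries and were compared. The cells were untreated F121-9 cells, a hybrid embryonic stem cell line in which each parental copy of a gene can be recognised. They carried the far-red reporter mKate2 on the 129 allele of Pou5f1, downstream of its antisense start site, and TagBFP2 at the C terminus of Oct4. All untreated Pou5f1 groups share these alleles and a culture in serum replacement with LIF and inhibitors of MEK and GSK3. Further libraries, used only to set other readouts beside the run-on levels, came from the same reporter line transfected with 40 nM of a non-targeting control siRNA (siNT) 48 hours before harvest, and from wild-type F121-9 cells with inserts at 4930461G14Rik (14Rik). At 14Rik the inserts sat 102 nt from the start site on the CAST allele and RNA was read from a primer 287 nt downstream. Inserts sat 157 nt from the upstream antisense start site and just upstream of mKate2, so the transcript measured runs away from the coding gene (Pou5f1, protein coding, chromosome 17:35506032-35510777 in GRCm38).

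Pou5f1 encodes Oct4, a transcription factor that embryonic stem cells need to stay pluripotent. Like most mammalian promoters, its promoter starts transcription in both directions, and the RNA made upstream and antisense is usually short-lived because polymerase stops early and the RNA is degraded. In INSERT-seq, a library of sequences is put behind such a start site, and the RNA of each insert per integrated copy reads how far transcription and RNA survival reach past it. In a nuclear run-on, cells are permeabilized so that free nucleotides are washed out, and polymerases already on the DNA are then allowed to extend their RNA with labelled nucleotides. Biotin-labelled RNA is pulled out on streptavidin beads, which takes RNA still held by an active polymerase and leaves out most RNA made earlier. Here the run-on lasted 15 min on 30M permeabilized cells, biotin was carried on C and U, and the RNA was reverse transcribed from a primer in mKate2, 221 nt downstream of the insert. A read therefore came from a polymerase that had passed the insert and the primer site. The files pair insert numbers with neither genes nor sequences, so inserts are described by number, by class and by value.

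The run-on libraries held 47950126 and 61202674 reads on inserts, and their gDNA libraries held 28281302 and 29442628. The median insert had 1.313 run-on reads per gDNA read in screen 1 and 1.851 in screen 2. A level below is log2 of run-on reads over gDNA reads, with 2 reads added to each, minus the median of all compared inserts in that screen, so a level of 0 is the typical insert. It does not tell a smaller number of transcribing cells from less RNA per cell. The labels do not say that the libraries came from separate cultures, so p-values measure a spread between libraries. In the main fit that spread is estimated over 13 untreated Pou5f1 libraries, not over the run-on and gDNA libraries alone.

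Over all compared inserts, run-on levels had a long tail of low inserts. In screen 1 the middle 50% of inserts spanned 2.02 log2 units (-1.18 to 0.83). In screen 2 they spanned 1.42 (-0.80 to 0.62). The 95th percentile stood 4.03-fold above the median insert in screen 1 and 2.97-fold above in screen 2, while the 5th percentile stood 18.7-fold and 14.5-fold below. In both screens the spread below the typical insert was thus wider than the spread above it. Few inserts gave no run-on read at all: 15 in screen 1, 26 in screen 2 and 6 in both, and those 6 had at most 324 gDNA reads over both libraries. With so few copies read, a low level could not be told from none in them.

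The levels of the screens followed each other in part. Across the 15166 inserts Pearson's r was 0.419 and Spearman's rho 0.385, and an insert's levels differed by a median of 0.95 log2 units. These are correlations across inserts, which share a library and are not independent replicates. With at least 1000 gDNA reads in both libraries (8162 inserts), r was 0.456 and the median difference was 0.71. With 50 to under 200 reads in the shallower library (1355 inserts), the median difference was 1.85, and the middle 50% of inserts spanned 4.65 and 4.43 log2 units. More than 2-fold from the typical insert in both screens were 923 inserts above (6.09%) and 1660 below (10.9%), and 582 (3.84%) passed 2-fold in opposite directions. Past 4-fold there were 145 above, 754 below and 89 in opposite directions. Among the inserts with at least 1000 gDNA reads, 17 were past 4-fold above, 96 below and 0 in opposite directions, so the contradictory inserts at that size all had fewer gDNA reads.

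The low tail formed a cloud of its own, centred near or below -4, and most of its members lay in it in 1 screen but not in the other. More than 8-fold below the typical insert were 1301 inserts (8.58%) in screen 1 only, 529 (3.49%) in screen 2 only and 481 (3.17%) in both. The 1301 inserts low in screen 1 only had medians of 58 run-on reads there and 780 in screen 2, with levels of -4.01 and -0.45. The 529 low in screen 2 only had 588 and 38 run-on reads, with levels of -0.36 and -4.28. Those low in both had 18 and 14 run-on reads against 322 and 270 gDNA reads, while inserts low in neither had 2260 and 2950 against 1610 and 1560. The low inserts were thus also the less deeply read in gDNA. Below 200 gDNA reads, 33.4% of inserts in screen 1 and 29.2% in screen 2 lay more than 8-fold below the typical insert, against 3.55% and 1.20% from 1000 reads on; the part of gDNA depth in the low cloud was not tested. Within the 12855 inserts low in neither screen, r was 0.341 and the median difference between screens was 0.80. Leaving out the low inserts narrows the range of levels, which by itself can lower r.

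**Figure D1:**
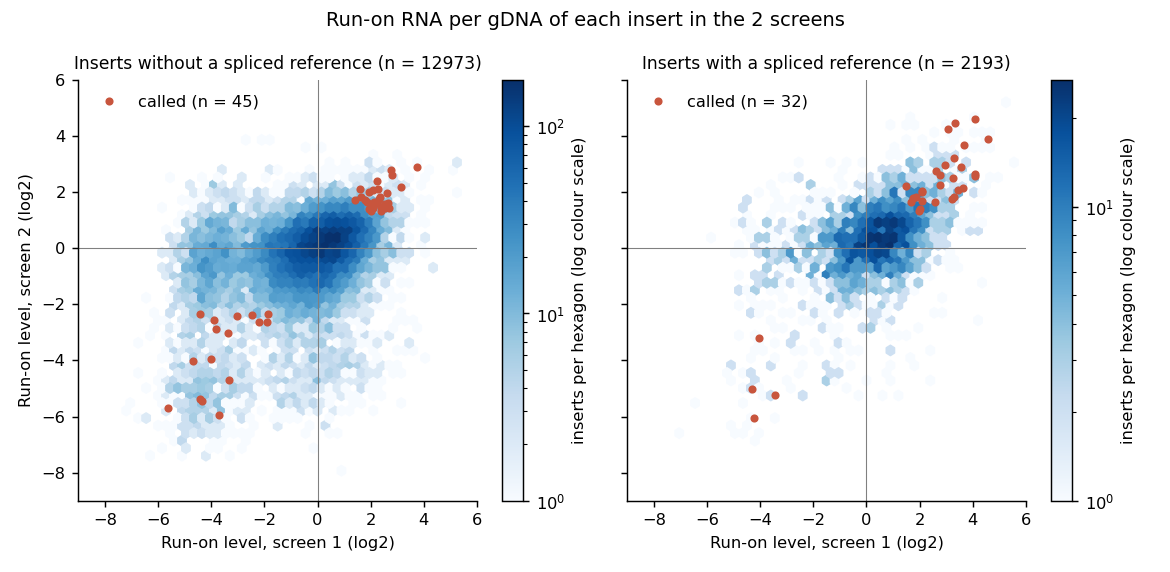
Run-on level of each insert in screen 1 (x axis) and screen 2 (y axis), in log2 units with the typical insert at 0, for inserts without (left, n = 12973) and with a spliced reference (right, n = 2193); the blue shade counts inserts per hexagon on a log scale and red points passed the test against gDNA (45 and 32 inserts). A main cloud lies around 0 in both screens, and the left panel shows further clouds near -4 to -5 in screen 1, in screen 2 or in both.

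The low inserts were low in other RNA libraries too. In total RNA of 3 further untreated screens with their own gDNA, the median level of the inserts low in both run-on screens was -1.94 ± 0.46 (SD, n = 3 libraries). For those low in screen 1 only it was -1.32 ± 0.16, and for those low in screen 2 only -1.13 ± 0.11. In RNA bound to chromatin the same medians were -1.53 ± 0.19, -0.85 ± 0.17 and -0.96 ± 0.17 (SD, n = 2). In total RNA from inserts at 14Rik they were -1.46 ± 0.26, -1.22 ± 0.17 and -0.93 ± 0.01 (SD, n = 3). In each of these libraries the 3 low groups lay below the inserts low in neither run-on screen, whose medians were 0.10 to 0.21. These are descriptions of inserts grouped by their run-on level, with no test. The groups were picked for low run-on levels, so medians nearer the typical insert in libraries not used for the picking are built in. Inserts low in screen 1 only stood at a median of -0.45 in run-on screen 2 itself.

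Splicing was a property of inserts that went with their run-on level. Introns are cut out of RNA by the spliceosome, in many mammalian genes while polymerase is still transcribing, so spliced reads can be found in nascent RNA. For 2404 inserts the authors counted reads on a spliced reference as well, in which 21 to 155 nt are removed, and 2193 of these inserts were compared. Spliced reads made up 5.19% of all run-on reads in screen 1 and 2.95% in screen 2. They made up 19.1%, 8.31%, 9.97% and 22.4% of the 4 untreated total RNA libraries, the last of which shares the gDNA of run-on screen 1. Both run-on libraries lay below all 4. So did the libraries of RNA bound to chromatin, which at 3.39% and 2.99% lay between the run-on libraries.

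Inserts with a spliced reference had the higher run-on level in both screens. Their median levels were 0.45 in screen 1 and 0.35 in screen 2, against -0.07 and -0.05 for the 12973 inserts without one. The gap was 0.46 ± 0.09 log2 units (SD, n = 2), or 1.38-fold. Of the class, 16.2% stood more than 2-fold above the typical insert in both screens, against 4.38% of the other inserts, and 6.89% stood more than 2-fold below, against 11.6%. On unspliced reads alone the gap was -0.08 in screen 1 and 0.11 in screen 2 (mean 0.02 ± 0.13), so the screens lay on opposite sides of 0. With at least 1000 gDNA reads in both libraries, the gap over all reads was 0.25. The sources used do not say how spliced references were chosen. If RNA reads were used for it, higher values of the class could be partly built in, which was not tested.

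Within the class, the level went with the length that splicing removes. Inserts with 1 spliced form that removes under 70 nt (334 inserts) had median levels of 0.26 and 0.13, and on unspliced reads 0.20 and 0.07. From 70 to under 95 nt (627 inserts) the medians were 0.45 and 0.22, and from 95 to under 120 nt (572 inserts) 0.48 and 0.42. From 120 nt on (521 inserts) they were 0.70 and 0.72, the highest of the length groups in both screens. On unspliced reads the same 521 inserts had medians of -0.30 in screen 1 and 0.20 in screen 2. The 139 inserts with 2 or more spliced forms stood at -0.01 and 0.21.

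The spliced share, the percentage of an insert's run-on reads that lie on its spliced reference, ranged from 0 to nearly all. Over the 2266 inserts with at least 20 run-on reads in both libraries, the median share was 6.64% in screen 1 and 4.33% in screen 2 (mean 5.48% ± 1.63, SD, n = 2). No spliced read was found in 496 inserts in screen 1, 498 in screen 2 and 446 in both. Spliced reads were at least 50% of an insert's reads in 618 and 418 inserts, and in 349 in both screens. The share was higher in screen 1 for 1191 inserts and higher in screen 2 for 612, and the library with more spliced reads overall was thus screen 1 at single inserts too. Across these 2266 inserts the shares correlated at 0.776 (Pearson) and 0.886 (Spearman). The correlation of the levels, 0.419 (Pearson), was taken over all 15166 compared inserts, so the 2 sets differ. The share does not use gDNA.

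The spliced share also went with the length removed. Under 70 nt, 60.9% and 60.0% of inserts had no spliced run-on read, and the median share was 0 in both screens. From 70 to under 95 nt the median shares were 5.82% and 3.61%, from 95 to under 120 nt 13.1% and 6.46%, and from 120 nt on 37.9% and 21.2%. The order was the same in both screens. Of the 2556 spliced references, 1843 had run-on reads in both libraries and 567 in neither. Of 78 inserts with 2 or more forms and at least 20 spliced reads in each library, 57 had the same main form in both.

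To keep the reads of 1 library from entering both measures, levels in 1 screen were set against spliced shares from the other. Inserts without a spliced read in screen 1 had a median level of 0.03 in screen 2, and those with a share of 50% and over had 1.10, which is 2.14-fold the typical insert. Binned by shares from screen 2, the levels in screen 1 were -0.05 at a share of 0 and 1.60 (3.04-fold) at 50% and over. The median was higher in each share group than in the one before it, in both screens. Spliced reads count in the level, and shares were alike between screens, so this rise over all reads is partly built in. On unspliced reads the highest group stood at 0.05 in screen 2 and at -0.64 in screen 1, near or below the typical insert.

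**Figure D2:**
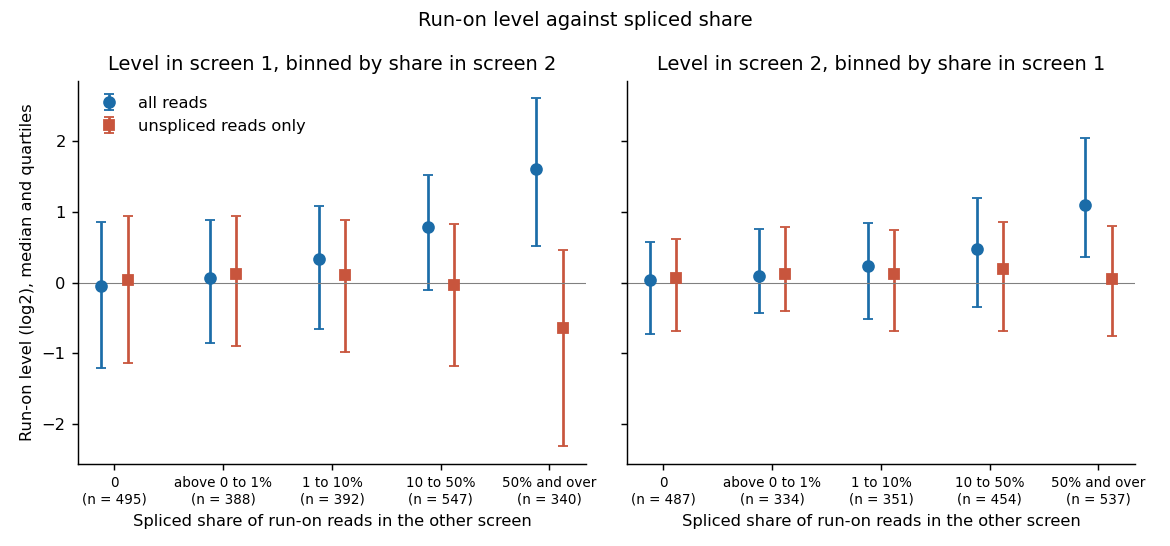
Run-on level in 1 screen (y axis, log2; points are medians, bars the quartiles over inserts) against the spliced share of the same inserts in the other screen (x axis, 5 groups with the number of inserts), over all reads (blue circles) and over unspliced reads only (red squares). Medians over all reads go from -0.05 to 1.60 (left) and from 0.03 to 1.10 (right), and those over unspliced reads do not.

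Single inserts were tested with edgeR's quasi-likelihood test, fitted on 13 untreated Pou5f1 libraries together (total, chromatin and run-on RNA with their gDNA) with the screen as a block, and called at a Benjamini-Hochberg adjusted p under 0.05. Against gDNA, 77 of 15166 inserts were called (0.508%). Of these, 57 were higher in run-on RNA (0.376%) and 20 lower (0.132%). All 77 lay on the same side of the typical insert in both screens, as did 9658 of all 15166 inserts (63.7%). The calls were made from these same libraries, so the sides of the 77 are no test of agreement between screens. Levels of the 57 ran from 1.42 to 4.59 in screen 1 and from 1.33 to 4.59 in screen 2. Those of the 20 ran from -5.64 to -1.87 and from -6.06 to -2.33. Inserts with a spliced reference made up 28 of the 57 and 4 of the 20. That is 1.46% of the class called in either direction, against 0.347% of inserts without a spliced reference. The count rested on single screens: without all libraries of run-on screen 1, or of run-on screen 2, it was 0 (976 and 2005 at an unadjusted p under 0.05, against 2183 with all), and without those of total RNA screen 1, 2 or 3 it was 42, 1 or 137. It was 201 with the 4 run-on and gDNA libraries fitted alone, and 1098 by DESeq2. The split also moved with the scaling: it was 26 higher and 21 lower with library totals and 444 higher and 654 lower by DESeq2, and the median log2 fold change over all inserts was -0.11 here, -0.31 with library totals and -0.21 by DESeq2.

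Among called inserts with a spliced reference, at least 200 gDNA reads on average and levels on the same side in both screens, sequence_12550 had the largest fitted rise. It gave 27462 run-on reads against 1226 gDNA reads in screen 1 and 25970 against 580 in screen 2. Both levels, 4.09 and 4.59, stood far above the typical insert, and the fitted log2 fold change was 4.14 (SE 0.39, adjusted p = 0.00375, edgeR). The test itself gives no SE. Each SE printed with a fold change is the size of the change over the square root of the test's F statistic, so it adds nothing independent of the p-value. Splicing removes 128 nt from this insert. Of its run-on reads, 91.4% in screen 1 (exact 95% interval 91.1% to 91.7%) and 78.5% in screen 2 (78.0% to 79.0%) were spliced. The intervals count each read as 1 and cover counting error only. All deposited counts were even, and if both mates of a pair were counted, the intervals are too narrow. Copies made by PCR are counted as reads too. On unspliced reads alone the insert's levels were 0.63 and 2.41, and the fold change of 1.53 was not called (adjusted p = 0.477, edgeR). Its levels were 4.12 and 3.53 in chromatin RNA and 4.94 to 6.37 in the 4 total RNA libraries. Run-on and total RNA did not differ past the threshold (-1.44, SE 0.41, adjusted p = 0.113, edgeR). The authors' deposited table gives it a sort-seq score, the mean fluorescence bin of its cells out of 6, of 6.00 and 5.88 in the 2 sort screens.

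Among called inserts without a spliced reference, held to the same conditions, sequence_04973 had the largest fitted rise. It gave 7876 run-on reads against 886 gDNA reads in screen 1 and 7832 against 608 in screen 2. Its levels of 2.76 and 2.80 were nearly equal, and the log2 fold change was 2.81 (SE 0.35, adjusted p = 0.0260, edgeR). Chromatin RNA of this insert stood at 2.52 and 2.72 and total RNA at 2.40 to 3.36, and run-on and total RNA differed by 0.23 (SE 0.39, adjusted p = 0.819). The sort-seq score in the authors' deposited table was 5.25 and 5.20.

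The called inserts with the largest fitted falls under the same conditions were low in run-on RNA and closer to the typical insert in chromatin and total RNA. These inserts were picked for low run-on RNA, so part of that difference is built in. Inserts with larger falls that were not called are not named. Without a spliced reference, sequence_02370 gave 4 run-on reads against 226 gDNA reads in screen 1 and 14 against 448 in screen 2. Its levels were -5.64 and -5.70 (log2 fold change -5.81, SE 0.90, adjusted p = 0.0409, edgeR). In chromatin RNA it stood at -0.43 and 0.57, and in the 4 total RNA libraries at 1.11, 0.70, 1.55 and -0.03, so no library of either kind overlapped the run-on levels. Its run-on RNA was below its total RNA by a log2 fold change of -6.41 (SE 0.97, adjusted p = 0.0180) and below its chromatin RNA by -5.66 (SE 1.03, adjusted p = 0.0869), which was not called. With a spliced reference, sequence_16393 gave 28 run-on reads against 452 gDNA reads and 20 against 380, at levels of -4.31 and -5.00 (log2 fold change -5.12, SE 0.91, adjusted p = 0.0444, edgeR). No spliced read was among them, which leaves exact 95% upper limits of 12.3% and 16.8% if each read is counted as 1. If reads were counted as pairs the limits are higher. Its total RNA stood at -1.28, -1.66, -0.88 and 0.31 and its chromatin RNA at 0.25 and 0.53. Neither contrast with run-on RNA was called: the log2 fold change was -3.99 against total RNA (SE 0.89, adjusted p = 0.0569) and -5.60 against chromatin RNA (SE 1.05, adjusted p = 0.102). The sort-seq scores in the authors' deposited table were 4.19 and 5.08 for sequence_02370 and 3.51 and 4.03 for sequence_16393, above the medians of 2.91 and 3.07 of the middle group of inserts by run-on level. In the fit of the 4 run-on and gDNA libraries alone neither fall was called (adjusted p = 0.0872 and 0.124).

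**Figure D3:**
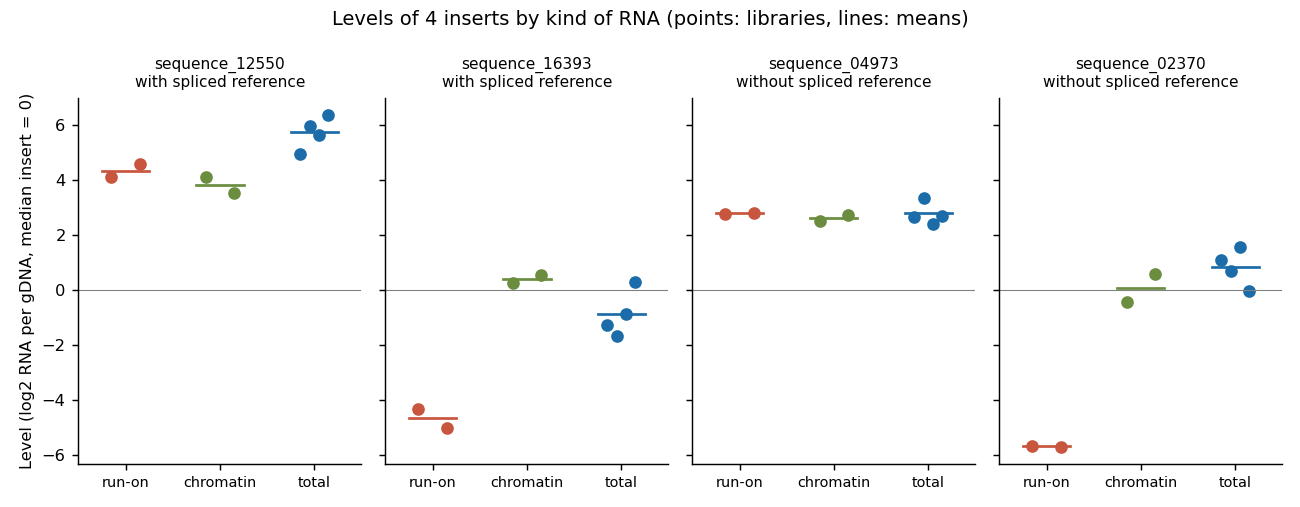
Levels of 4 inserts (y axis, log2 of RNA per gDNA with the typical insert at 0) in the run-on, chromatin and total RNA libraries (x axis; each point is a library, each line a mean). The inserts with rises are high in all 3 kinds of RNA, and sequence_16393 and sequence_02370 lie between -4.31 and -5.70 in run-on RNA and between -1.66 and 1.55 in the other libraries.

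The 2 inserts with the highest spliced shares, sequence_12082 and sequence_12376, were spliced in 99.7% and 99.5% of run-on reads in screen 1 and in 99.5% and 99.4% in screen 2. Splicing removes 138 nt from each. The insert sequence_12082 gave 1498 and 1094 run-on reads, of which 4 and 6 were unspliced. The other gave 1756 and 308, of which 8 and 2 were unspliced. Their levels differed between the screens, at 2.57 and 0.67 for sequence_12082 and 3.83 and 0.64 for sequence_12376, and neither was called against gDNA (adjusted p = 0.669 and 0.431, edgeR). Their gDNA reads were few, 190 and 372 for the former and 92 and 106 for the latter.

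Run-on RNA was set against the other kinds of RNA by contrasts in the same fit. Only run-on screen 1 also had a total RNA library, and no screen held both run-on and chromatin RNA. The contrast with chromatin RNA thus ran through the gDNA and total RNA libraries, not within a screen. Against total RNA, which holds all RNA the cells have kept, 179 of 15166 inserts were called (1.18%), of which 39 were higher in run-on RNA and 140 lower (69 and 80 with library totals, 38 and 449 with centring on the median insert). Without all libraries of run-on screen 1, run-on screen 2 or total RNA screen 2, this count was 0, and without total RNA screen 1 it was 74. Against RNA bound to chromatin, 0 inserts were called (0%), with 1155 at an unadjusted p under 0.05 and 382 called by DESeq2. That count was 12 without total RNA screen 2 and 171 without total RNA screen 3, which are also the screens of the chromatin libraries, and 77 without the block.

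The spread of levels was smaller in run-on than in total RNA. On the same 2900 inserts with at least 200 reads in all 5 untreated Pou5f1 gDNA libraries, the middle 50% spanned 1.39 and 0.98 log2 units in the run-on libraries and 1.28 in each chromatin library. In the 4 total RNA libraries they spanned 1.65 to 2.08, and neither run-on library reached the lowest of these. The gap between inserts with and without a spliced reference was 0.40 and 0.20 in run-on, 0.26 and 0.44 in chromatin and 0.57 to 0.96 in total RNA. On unspliced reads it was 0.01 and 0.04 in run-on, -0.05 and 0.16 in chromatin and -0.35 to -0.22 in total RNA. No run-on or chromatin library overlapped total RNA in the spread or the gap, and no test was run on them.

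Inserts with more run-on RNA had more RNA and more reporter signal in libraries that share no gDNA with them. Inserts were put into 5 equal groups by their mean run-on level. From the lowest group to the highest, the median level went from -1.34 ± 0.12 to 1.05 ± 0.03 in total RNA of 3 untreated screens (SD, n = 3). In chromatin RNA it went from -0.96 ± 0.13 to 0.70 ± 0.04 (n = 2). In total RNA of cultures labelled siNT it went from -1.95 ± 0.02 to 1.39 ± 0.03 (n = 3). At 14Rik it went from -1.21 ± 0.14 to 1.19 ± 0.08 (n = 3). The mean of the medians was higher at every step in each kind of library. The sort-seq score of the authors' deposited table went from 2.71 ± 0.25 to 3.70 ± 0.01 (n = 2). Across inserts, Pearson's r with the mean run-on level was 0.426 to 0.496 for total RNA, 0.386 and 0.388 for chromatin RNA, 0.544 to 0.554 for siNT total RNA, 0.375 to 0.414 for 14Rik and 0.249 and 0.237 for the sort-seq score. All these libraries were counted on the same insert references.

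**Figure D4:**
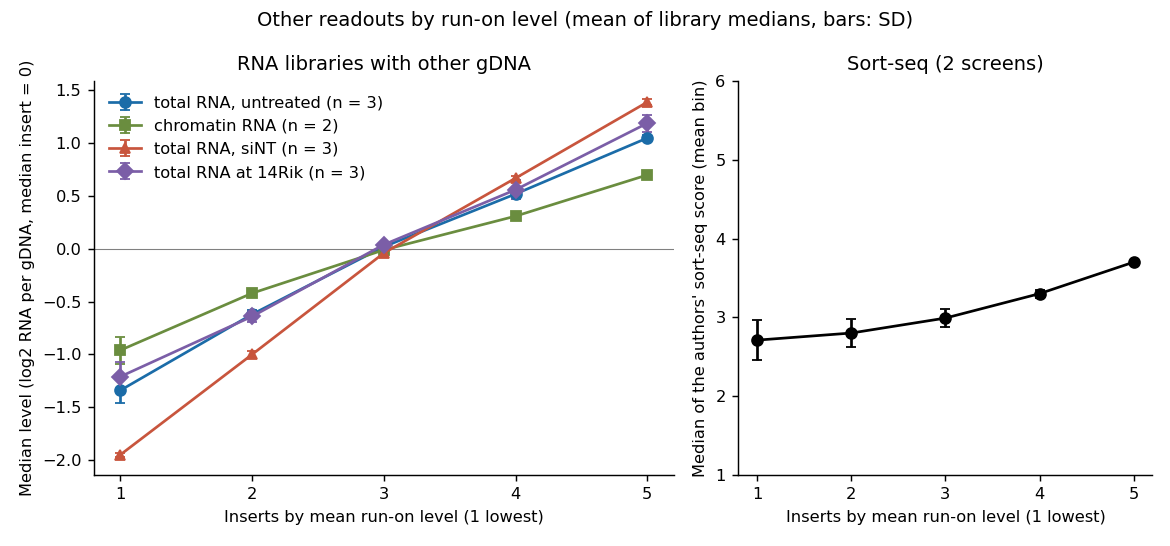
Median level of inserts in RNA libraries that have other gDNA (left, log2, typical insert at 0) and the authors' sort-seq score (right, mean bin from 1 to 6) in 5 equal groups of inserts ranked by mean run-on level; points are means of library medians and bars the SD over libraries. Every line goes up from the lowest to the highest group, from -1.95 to 1.39 for siNT total RNA and from 2.71 to 3.70 for the sort-seq score.

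The called inserts divided in the other libraries. The 57 called higher had median levels of 2.46 ± 0.20 in untreated total RNA, 1.78 ± 0.14 in chromatin RNA, 2.82 ± 0.08 in siNT total RNA and 2.55 ± 0.09 at 14Rik, all above the typical insert. The 20 called lower had medians of -0.44 ± 0.18, 0.05 ± 0.03, -0.35 ± 0.31 and -0.59 ± 0.44, against a median of -3.87 in run-on screen 1 and -3.58 in screen 2. Since the 20 were called for low run-on RNA, medians nearer the typical insert in other libraries are partly built in. Not every insert had a level in each library. The siNT medians rest on the fewest, 45 to 47 of the 57 and 12 to 14 of the 20. The untreated total and chromatin libraries were part of the fit that made the calls, and the siNT and 14Rik libraries were not. In the authors' deposited table the median sort-seq score was 5.00 for the 57 and 4.28 for the 20, both above the 2.99 of the middle and the 3.70 of the highest of the 5 groups by run-on level. The inserts called lower thus had high sort-seq scores too. Of the 20, 12 were also called against total RNA, and of the 57, 4, where 1.18% of all inserts were called. Both contrasts use the same 2 run-on libraries, so these counts are not independent of each other.

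Run-on levels varied along the authors' numbering of the inserts. Among inserts without a spliced reference, the median level in screen 1 was 0.51 to 0.59 in the 4 blocks of 1000 from numbers 1 to 4000, and -0.84 to -0.68 in the 6 blocks from 8001 to 14000. In screen 2 it was 0.10 to 0.19 in the former and -0.64 to -0.21 in the latter. Median gDNA reads went the same way, with 1810 to 2170 in the former and 782 to 1120 in the latter, and the part of depth in this trend was not tested. Among inserts with at least 1000 gDNA reads in both libraries the medians were 0.55 to 0.65 and -0.66 to -0.43 in screen 1. In screen 2 they were 0.15 to 0.24 and -0.81 to -0.20. Without this limit, the blocks starting at 14001, 15001 and 16001 stood at -0.06, -0.70 and 0.30 in screen 1. Their medians in screen 2 were 0.21, -0.15 and 0.04. Spliced references were held by 77.2% of inserts 12001 to 13000 and 45.8% of inserts 13001 to 14000, against 5.24% to 13.4% in the other blocks. These 2 blocks, with 886 and 882 of the 15166 compared inserts, held 14 and 7 of the 57 inserts called higher. The 4 blocks from 1 to 4000, with 939 to 962 inserts each, held 8, 8, 7 and 6. In the 2 dense blocks the median spliced shares in screen 1 were 43.0% and 12.3%, against at most 1.19% elsewhere.

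The gap between inserts with and without a spliced reference differed along this numbering. In inserts 12001 to 13000 it was 1.64 in screen 1 and 0.83 in screen 2, and in inserts 13001 to 14000 it was 1.15 and 0.93. In inserts 1 to 12000 it was 0.35 and 0.26, and from 14001 on it was 0.07 and -0.05. Outside the 2 dense blocks together (1105 inserts with and 12293 without a spliced reference) the gap was 0.35 and 0.19. On unspliced reads it was 0.49 and 0.22 in inserts 12001 to 13000 and 0.39 and 0.60 in inserts 13001 to 14000. Within these blocks the class was thus higher without its spliced reads too. In inserts 1 to 12000 the gap on unspliced reads was 0.08 and 0.13, and from 14001 on it was -0.17 and -0.20. The gap of 0.02 over all inserts pools these blocks.

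**Figure D5:**
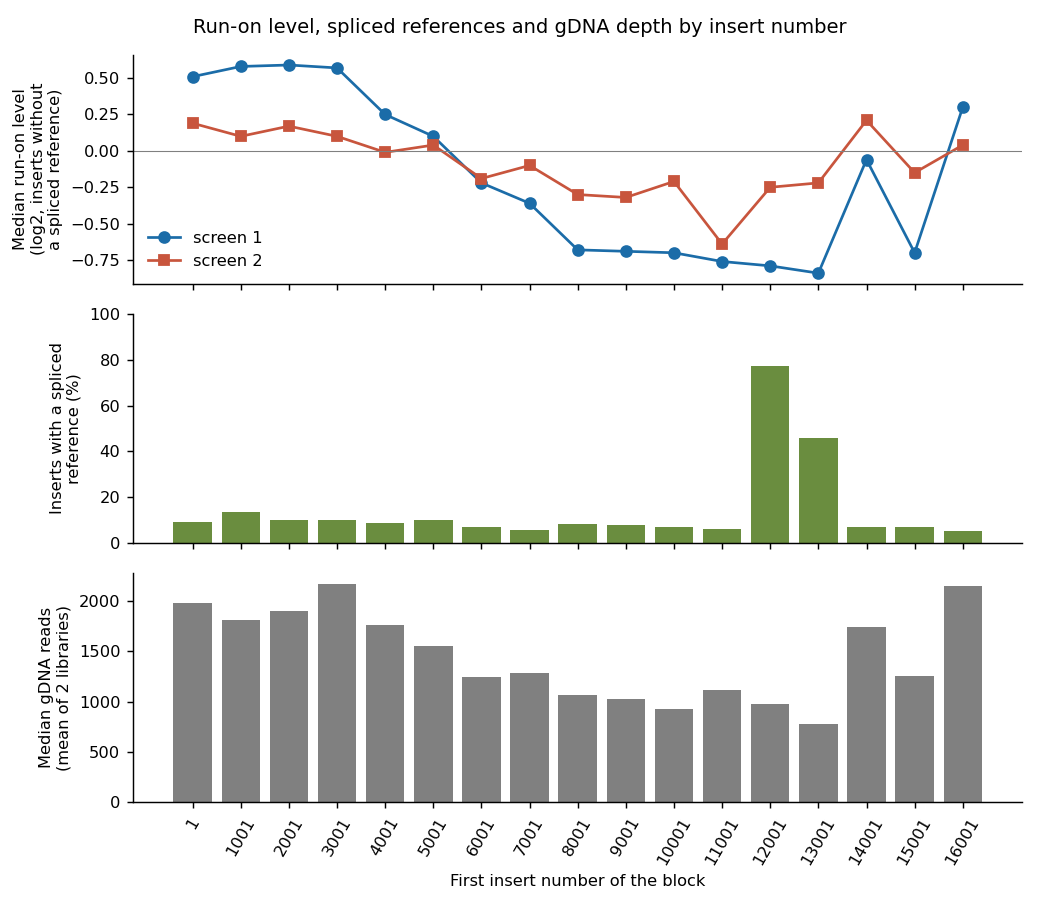
Median run-on level of inserts without a spliced reference in screen 1 (blue circles) and screen 2 (red squares, log2), percentage of inserts with a spliced reference, and median gDNA reads (mean of the 2 libraries), each by block of 1000 insert numbers (x axis, first number of the block). Levels and gDNA reads are both high up to 4000 and low from 8001 to 14000, and the blocks from 14001 on differ in both. Spliced references reach 77.2% and 45.8% in the blocks from 12001 and 13001.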

How the data were processed

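The authors deposited counts of reads per reference for each library; gDNA reads were counted against unspliced insert references and RNA reads against spliced ones as well, per the file headers. Cutadapt 1.14 and Bowtie2 2.3.4.3 were used, per the submitters' processing notes. Run-on cDNA was amplified over 19 PCR cycles, per the labels' protocols, and reads carry no molecular identifiers. All deposited counts were even (0 odd counts), as when both mates of a pair are counted. The deposited ratio of run-on RNA to gDNA matched the ratio of counts after division by a constant of 1.2 in screen 1 and 1.782 in screen 2, and the deposited fraction of spliced reads equalled spliced over all reads. The sort-seq score was taken from the authors' deposited table, in which rows follow insert order, and 16 other value columns there were not used. Reads without a reference made up 50.99% to 53.03% of each library. The sources used here do not say how spliced references were chosen.

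Unspliced and spliced counts were summed per insert. Inserts with at least 50 reads in both gDNA libraries were tested in edgeR 4.0.16 (R 4.3.3, TMM scaling, quasi-likelihood test) with kind of library and screen as terms, since 2 run-on libraries alone give few degrees of freedom (5 in the joint fit, prior 6.48). The alternatives, with DESeq2 1.42.0 among them, are in the closing section. Named inserts are those called with the largest rise and fall, with and without a spliced reference, among 75 with at least 200 gDNA reads on average and the same side in both screens, and the 2 with the highest spliced share. Members, classes, lists and tests were chosen with earlier results of these data known.

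Screens were paired by label. The difference between the run-on libraries correlated with that between their gDNA libraries at 0.00855 across inserts, against 0.281 to 0.501 for pairs of total RNA screens and 0.268 for chromatin RNA, so the counts do not show the pairing. The 2 gDNA libraries correlated with each other at 0.850, and other pairs of untreated Pou5f1 gDNA libraries at 0.498 to 0.772.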

Additional observations from a re-analysis of the deposited data

Results flagged for a closer look

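Run-on reads fell on inserts that gave no gDNA read, which no comparison used. In 322 inserts neither gDNA library had a read. Of these, 67 had run-on reads in screen 1, 18778 in all (0.0392% of the library), and 61 had them in screen 2, 8632 in all (0.0141%). In 46 inserts both screens had run-on reads, and 25 and 21 inserts had 50 or more. A single insert reached 2968 reads in screen 1 and 1082 in screen 2. No read of these inserts was found in the 3 other untreated Pou5f1 gDNA libraries for 91 of the 322. The 5 summary measures of the 4 total RNA libraries held no library that stood apart from the others (0 of 5).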

How the results depend on the processing

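The 77 inserts called against gDNA became 1098 by DESeq2, 47 with library totals, 201 with the 4 run-on and gDNA libraries alone and the replicate block (276 in that fit with the gDNA libraries swapped between the run-on screens, added after seeing the data), 127 with no replicate block, and 153 of 10616 with at least 50 reads in all 5 gDNA libraries. They ranged from 0 to 137 when all libraries of 1 screen were left out. DESeq2 called all 77 and the 4 libraries alone called 46 of them; centring, other read minimums, no filter and unspliced reads moved the count by less than 1.5 times. The 179 inserts called against total RNA became 1332 by DESeq2, 487 with centring on the median insert, 460 with 50 reads in all 5 gDNA libraries and 0 to 139 with 1 screen left out. The 0 against chromatin RNA became 382 by DESeq2, 77 with no replicate block, 6 with 50 reads in all 5 gDNA libraries and 0 to 171 with 1 screen left out. The cause of these changes was not tested. Of 16 alternatives, sequence_12550 and sequence_04973 kept their call in 13, sequence_02370 in 11 and sequence_16393 in 10, and none changed direction in any; every one lost it without either run-on screen, where 1 library carries the comparison and is assumed to vary like the others.

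The gap of 0.46 became 0.25 with at least 1000 gDNA reads and 0.02 on unspliced reads, and was 0.40 to 0.52 with 1 screen left out. The correlation of 0.419 became 0.426 and 0.405 with 0.5 and 10 reads added, 0.426, 0.404 and 0.456 with at least 20, 200 and 1000 gDNA reads, 0.386 on unspliced reads and 0.409 with gDNA swapped. The median spliced share of 5.48% became 16.7% among inserts with a spliced run-on read, and was 4.33% to 6.64% with 1 screen left out. The interquartile range, 1.72 on average, was 1.31 to 1.76 under the other settings and 1.42 to 2.02 with 1 screen left out. Below 200 gDNA reads in the shallower library the levels of an insert differed by a median of 1.85 between screens, against 0.71 from 1000 reads on.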
